A study of Homo sapiens and Mus musculus with 12 samples.

Results

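The enzymes and readers that write, remove and recognise histone acetylation and methylation, together with the motors that move nucleosomes, were followed in natural killer (NK) cells in which the histone H3 lysine 9 methyltransferase EHMT2 (G9a) was deleted or inhibited. Members were taken by gene symbol, and the rule used no values of their response. The families were, however, chosen with earlier results of these data known. They comprised the KMT2, SETD1, SETD2 and KMT5 methyltransferases, the KDM1, KDM2, KDM5A to KDM5C, KDM6A, KDM6B, KDM7 and KDM8 demethylases, the numbered HDAC, SIRT, KAT, BRD, CHD and PRMT genes, the SMARC genes, and ARID1 and ARID2. Each had to reach 10 counts in at least 3 libraries of its table. This left 85 members of the 22021 genes listed in mouse (87 symbols matched) and 93 of the 18304 genes listed in human (109 matched). The mouse genes left out, Prmt8 and Smarca1, had at most 6 counts in any library, and the 16 human genes left out, all pseudogenes, antisense or divergent transcripts, had at most 15. All members were tested. Most were protein-coding, but the symbol rule also took Chd3os in mouse and KMT2E-AS1, HDAC2-AS2, KDM7A-DT, PRMT5-DT and SMARCAL1-AS1 in human. Of these, HDAC2-AS2 reached 10 counts only in DMSO libraries and SMARCAL1-AS1 only in BIX libraries.

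RNA-seq counts were available for NK cells sorted from mouse spleen (3 WT and 3 KO libraries) and for cultures of NK92MI cells given either BIX-01294 (3 libraries) or DMSO (3 libraries). Totals ran from 25891680 counts (WT replicate 2) to 37438868 in mouse and from 16579469 to 17165446 in human. Both groups of mice were age- and sex-matched C57BL/6J animals of 8 to 12 weeks with loxP sites flanking part of Ehmt2 on both chromosomes (Ehmt2 flox/flox). KO mice in addition carried iCre in Ncr1, the gene of the NK receptor NKp46, so deletion is limited to cells that have switched on Ncr1. NK92MI, a cultured line of human NK origin, was engineered to supply itself with IL-2. BIX-01294 blocks the catalytic activity of EHMT2, and DMSO is the solvent. NK92MI cells in the study's functional assays received 0.25 µM BIX-01294 for 5 days. Dose and time are not stated for the sequenced cultures. The labels do not say whether replicates came from separate mice or cultures, so the p-values measure the spread between these libraries. The titles name EHMT2-KO, although the genotype label of the KO libraries reads Ezh2-KO. Ehmt2 was at 275, 284 and 285 CPM (counts scaled to library size after TMM normalization) in WT and at 171, 143 and 137 CPM in KO NK cells (log2 fold change −0.91, standard error 0.10, adjusted p = 0.0162 by edgeR's quasi-likelihood test). Ezh2 was at −0.23 (adjusted p = 0.116). EHMT2 was at 57.1, 61.6 and 54.3 CPM with DMSO and at 40.4, 39.3 and 35.8 CPM with BIX (−0.58, adjusted p = 0.000101).

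In general, lysine acetyltransferases (KATs) place acetyl groups on histone tails, and histone deacetylases (HDACs) and the NAD-dependent sirtuins take them off again. Bromodomain proteins such as the BRD family bind acetylated lysines. Methylation of histone H3 at lysine 4 by the KMT2 and SETD1 enzymes marks active enhancers and promoters, SETD2 places the lysine 36 mark of transcribed gene bodies, KMT5 enzymes methylate histone H4 lysine 20, and PRMTs methylate arginines. Lysine demethylases (KDMs) reverse these marks, each with its own sites. The SMARC and ARID genes encode parts of SWI/SNF (BAF) and related ATP-driven remodellers, and CHD proteins are a second remodeller family. EHMT2 places methyl groups on histone H3 lysine 9 at genes that are kept silent. In lymphocytes, acetylation and H3K4 methylation mark effector genes such as cytokine and granzyme loci that are ready for use.

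Sequence just before the start of human members is shown for KDM6B, the protein-coding member that rose most in BIX cells, for HDAC7 and HDAC9, which fell together, and for KAT2A, the acetyltransferase that fell most. The letters are RefSeq windows of GRCh38.p14 on the gene's own strand, and end at the start site, or before the first annotated exon where one begins earlier. Capitals mark GGGCGG (a GC box) and CCAAT, each on either strand. Several genes had more than 1 annotated start. The HDAC9 windows precede its upstream start and an internal one, the HDAC7 window lies within the gene as GENCODE draws it (chr12:47782722-47833132), before an internal start, and KDM6B had another window, not shown, without a GC box.
KDM6B, chr17:7833967-7834216, plus strand: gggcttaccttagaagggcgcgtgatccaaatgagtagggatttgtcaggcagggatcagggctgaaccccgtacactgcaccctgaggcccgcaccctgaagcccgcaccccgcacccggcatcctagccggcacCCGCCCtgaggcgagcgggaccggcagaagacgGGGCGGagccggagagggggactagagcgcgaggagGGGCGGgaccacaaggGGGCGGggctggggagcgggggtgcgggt
HDAC7, chr12:47819981-47820153, minus strand: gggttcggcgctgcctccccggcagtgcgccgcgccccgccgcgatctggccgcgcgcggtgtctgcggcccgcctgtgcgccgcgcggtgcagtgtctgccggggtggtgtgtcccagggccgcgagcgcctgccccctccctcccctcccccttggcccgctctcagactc
HDAC9, chr7:18086575-18086824, plus strand: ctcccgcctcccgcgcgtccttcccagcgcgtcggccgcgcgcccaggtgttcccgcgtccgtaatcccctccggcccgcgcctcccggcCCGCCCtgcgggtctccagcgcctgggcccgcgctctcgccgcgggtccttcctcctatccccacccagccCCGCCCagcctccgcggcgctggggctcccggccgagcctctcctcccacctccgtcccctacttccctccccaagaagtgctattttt
HDAC9, chr7:18495460-18495709, plus strand: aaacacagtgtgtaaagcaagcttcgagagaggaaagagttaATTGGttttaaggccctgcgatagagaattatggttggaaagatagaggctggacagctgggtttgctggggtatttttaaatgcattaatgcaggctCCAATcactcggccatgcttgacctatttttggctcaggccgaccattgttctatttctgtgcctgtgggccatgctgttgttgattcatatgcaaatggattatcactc
KAT2A, chr17:42121368-42121617, minus strand: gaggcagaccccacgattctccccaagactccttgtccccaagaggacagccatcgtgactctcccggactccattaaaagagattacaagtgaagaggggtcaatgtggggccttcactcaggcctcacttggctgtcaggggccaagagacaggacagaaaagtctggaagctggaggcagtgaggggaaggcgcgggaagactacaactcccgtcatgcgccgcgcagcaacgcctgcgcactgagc
The KDM6B window shown held 4 GC boxes, the upstream HDAC9 window 2, and the HDAC7 and KAT2A windows none. The internal HDAC9 window held CCAAT 2 times. Windows were given for 81 of the 93 human members, 132 windows with a median GC content of 65.6%. All 27305 genes had 35116 windows, with a median of 58%. A gene with more windows has more occasions to hold a motif. The part of GC content and of window number in the shares below was not tested. Over 250 bases before the start, GGGCGG was found in at least 1 window of 74.1% of these 81 members and of 46.2% of all 27305 genes with a window. For CCGGAA, the core bound by ETS factors, the shares were 30.9% and 17.2%. CCAAT was in 32.1% and 37.0%, and TATAAA in 3.70% and 13.0%. The palindromic core of a MEF2 site, of interest because class IIa HDACs bind MEF2 factors, was searched with any base at its middle positions. Matches can therefore include sequences that are not MEF2 sites. Such matches were in 1.23% of members and 2.92% of all genes. The cyclic AMP response element TGACGTCA was in 1.23% and 2.03%. GGGCGG was present in 10 of 14 members that rose with BIX, in 16 of 23 that fell and in 34 of 44 that did not pass the test.

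In Ehmt2 KO NK cells Sirt7, Prmt2, Smarcd3 and Prmt6 rose and Hdac9 fell, so 5 of 85 members passed an adjusted p of 0.05 by edgeR, against 11.9% of all 13189 genes tested. The background was 4.44% of genes higher and 7.43% lower. At stricter thresholds that the study used (adjusted p under 0.01 and an absolute log2 fold change over 0.5), edgeR called 0 members and 0.00% of all genes. This depended on the tool. DESeq2, the tool of the study, called Prmt2 and Smarcd3 higher (2 members, with 396 of 13189 genes) and Hdac9 lower (1 member, 8.33% of all genes) at these thresholds. 18 members had an unadjusted p under 0.05 (35.8% of all genes). WT and KO libraries did not overlap for 18 of 85 members, against 38.5% of all genes. KO was above WT in 13 of them (19.1% of all genes) and below in 5 (19.3%). The fold changes were small: 4 of 85 members moved by more than 0.5 on the log2 scale, against 26.8% of all genes, and the median log2 fold change was 0.08 for members and 0.01 for all genes.

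In NK92MI cells treated with BIX-01294, 42 of 93 members passed, against 36.9% of all 12727 genes. Of these, 16 rose and 26 fell, whereas all genes were called higher in 18.4% and lower in 18.4%. The 16 include SMARCAL1-AS1, which passed the count filter only through the BIX libraries, where it is higher. Among the 87 members annotated as protein-coding, 15 rose and 25 fell. At the study's thresholds 1 member rose (6.24% of all genes) and 7 fell (5.43%). The 1 that rose was KDM6B, and the 7 that fell were KAT2A, KAT14, HDAC4, HDAC7, HDAC9, CHD7 and the non-coding KDM7A-DT. The 3 BIX libraries did not overlap the 3 DMSO libraries for 51 of 93 members, against 47.9% of all genes, and 55 had an unadjusted p under 0.05 (46.1%). The median log2 fold change was −0.12 for members and −0.01 for all genes. Replicate libraries varied with a biological coefficient of 7.55% in NK92MI cells and 18.2% in mouse NK cells. Counts of calls are not compared between the experiments.

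**Figure D1:**
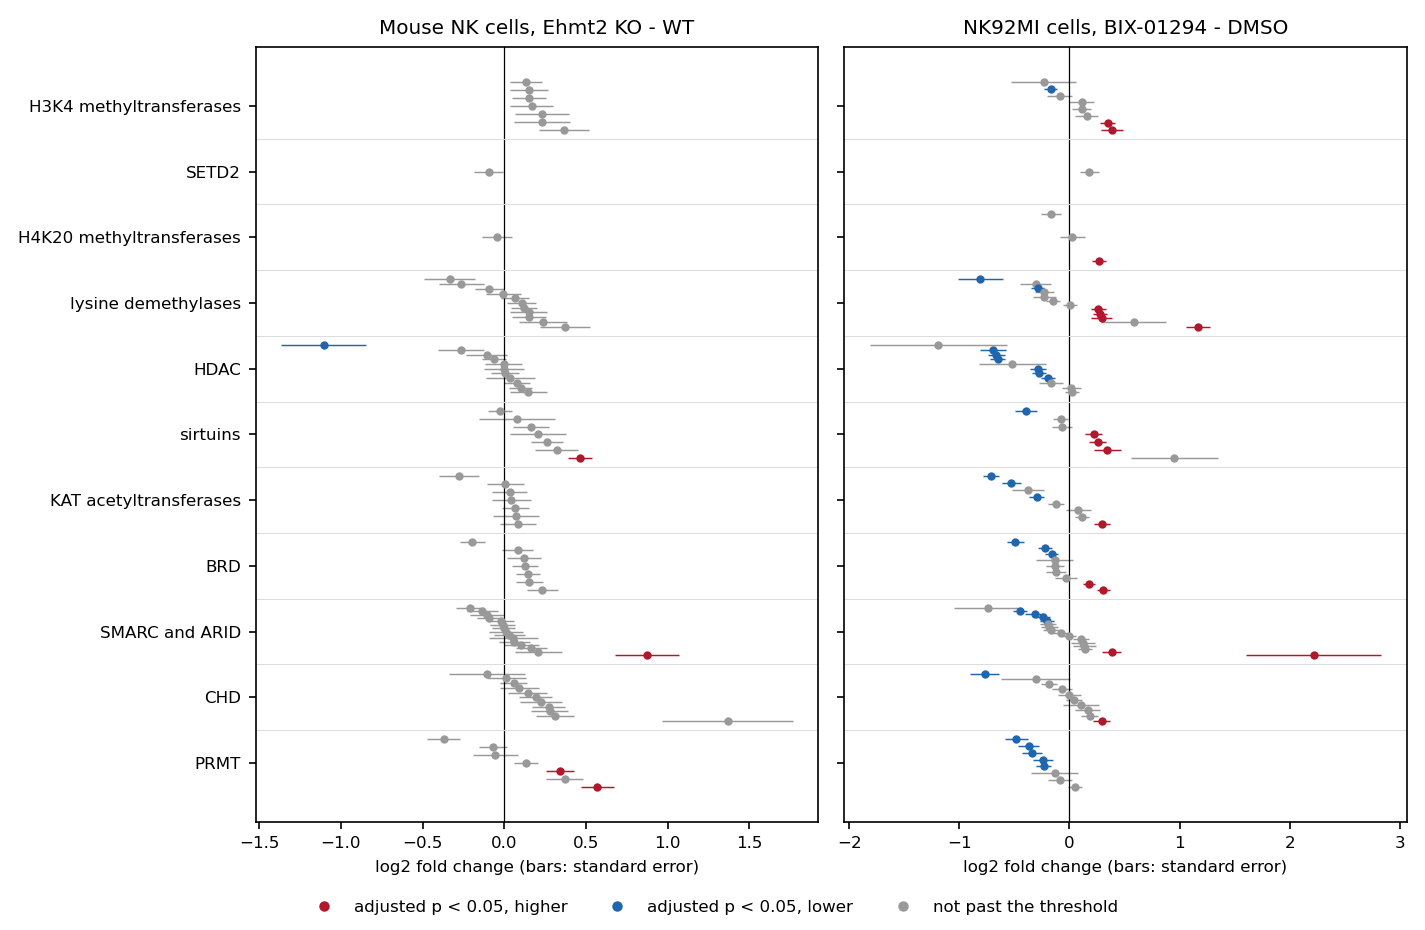
Log2 fold change of each member by family in mouse NK cells (KO minus WT, left) and NK92MI cells (BIX-01294 minus DMSO, right), with the standard error as the bar; the horizontal scales of the panels differ. Red and blue points passed an adjusted p of 0.05 by edgeR, 4 higher and 1 lower in mouse and 16 higher and 26 lower in human, where 6 HDAC and 5 PRMT members fell.

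Cell type markers moved together with the mouse genotype. All 12 NK markers had fold changes above 0 in KO libraries (7 passed), with a summed level of 5614 to 9534 CPM in WT and 10751 to 12541 CPM in KO. All 6 B cell markers lay below 0 (0 passed by edgeR), at a sum of 463 to 1310 CPM in WT and 84.3 to 425 CPM in KO. All 7 macrophage markers lay below 0 (5 passed), at 2267 to 5334 CPM in WT and 1247 to 2179 CPM in KO. The 5 neutrophil, 4 dendritic cell, 4 erythroid and 3 platelet markers were all below 0 too, with 1, 1, 4 and 0 passing, and 3 of 5 T cell markers. No marker was at 0 in every library, and 1 T cell marker rose. Over all mouse genes tested, 4.44% passed as higher and 7.43% as lower. The part of these markers in the changes of members was not tested, and in bulk samples fewer cells of a type and less RNA per cell cannot be told apart. In NK92MI cells the 11 NK markers summed to 3933 to 4291 CPM with DMSO and to 4495 to 5511 CPM with BIX. Of these 11, 5 passed as higher and 4 as lower, against 18.4% of all genes in each direction.

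Among the acetyltransferases, KAT2A (GCN5, the catalytic subunit of SAGA and ATAC) was lower in BIX cells, and its relative KAT2B (PCAF) was higher. KAT2A was at 80.0, 81.2 and 75.8 CPM with DMSO and at 47.2, 46.6 and 50.6 CPM with BIX. All BIX libraries lay below all DMSO libraries (log2 fold change −0.71, standard error 0.071, adjusted p = 5.56e-06 by edgeR). KAT14, another subunit of ATAC, was at 31.0, 29.0 and 30.6 CPM with DMSO and at 20.4, 21.1 and 21.4 CPM with BIX (−0.53, standard error 0.088, adjusted p = 0.000402), again without overlap. KAT8 (MOF), which acetylates histone H4 lysine 16, also fell (−0.30, adjusted p = 0.00476). KAT2B was at 403, 354 and 405 CPM with DMSO and at 494, 493 and 439 CPM with BIX, and all BIX libraries lay above (0.30, adjusted p = 0.00563). KAT5, KAT6A, KAT6B and KAT7 did not pass. Thus 1 of 8 KAT genes rose and 3 fell, against 18.4% of all genes in each direction, and the median of the family was −0.21.

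In mouse NK cells 0 of 7 Kat genes passed, against 11.9% of all genes. Kat2a was at 73.2, 63.2 and 78.3 CPM in WT and at 63.6, 62.5 and 50.9 CPM in KO. The groups overlapped, and the value of −0.28 did not pass (adjusted p = 0.144). Kat14 was not analysed here in mouse. The other 6 Kat genes lay between 0.01 and 0.08.

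Of the H3K4 methyltransferases, KMT2B and KMT2E rose and SETD1A fell in NK92MI cells, and 0 of 7 passed in mouse. KMT2B (MLL2) was at 166, 175 and 166 CPM with DMSO and at 213, 231 and 201 CPM with BIX (0.35, standard error 0.067, adjusted p = 0.00117). KMT2E, a family member without known catalytic activity, was at 132, 118 and 125 CPM and at 161, 194 and 135 CPM (0.38, adjusted p = 0.00919). The groups did not overlap for either gene. SETD1A fell by 0.17 on the log2 scale (adjusted p = 0.0405). KMT2A, KMT2C, KMT2D and SETD1B did not pass. In mouse NK cells all 7 genes of the family lay above 0, from 0.13 to 0.36, against 51.5% of all genes and 69.4% of all members. WT and KO libraries overlapped for each, and 0 passed (11.9% of all genes). Setd1a shares 52.3% of its exon length with other genes. The nearest to the threshold by p was Kmt2a (MLL1), at 187, 242 and 237 CPM in WT and 229, 318 and 310 CPM in KO (0.36, adjusted p = 0.134), and with libraries scaled to the NK markers it was at −0.45.

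SETD2 did not pass in either species. Setd2 was at −0.09 in KO NK cells (adjusted p = 0.469) and SETD2 at 0.18 in BIX cells (adjusted p = 0.110). Without BIX replicate 3, SETD2 was at 0.27 and passed. KMT5A (SET8), which places the first methyl group on histone H4 lysine 20, rose from 94.0, 91.0 and 95.4 CPM with DMSO to 119, 112 and 108 CPM with BIX. All BIX libraries lay above all DMSO libraries (0.27, standard error 0.065, adjusted p = 0.00529). KMT5B and KMT5C, which add further methyl groups, did not pass at −0.17 and 0.03. Kmt5a in mouse was at −0.04 (adjusted p = 0.764).

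Among the arginine methyltransferases, Prmt2 and Prmt6 rose in KO NK cells. Prmt2, a coactivator type arginine methyltransferase, was at 14.8, 14.2 and 15.6 CPM in WT and at 20.7, 22.0 and 23.6 CPM in KO. Each KO library lay above each WT library (0.57, standard error 0.10, adjusted p = 0.0294 by edgeR). Prmt6, which methylates histone H3 arginine 2 and opposes H3K4 methylation, was at 26.7, 26.1 and 24.3 CPM in WT and at 32.0, 32.0 and 33.8 CPM in KO, without overlap (0.34, standard error 0.088, adjusted p = 0.0474). Just outside the threshold lay Prmt7, which was at 23.9, 21.1 and 21.7 CPM in WT and 17.7, 17.3 and 16.6 CPM in KO (−0.37, adjusted p = 0.0507), and Prmt9 (0.37, adjusted p = 0.0652). WT and KO libraries did not overlap for 5 of 7 Prmt genes, against 38.5% of all genes.

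In NK92MI cells 5 of 8 PRMT entries fell and 0 rose, against 18.4% of all genes in each direction. PRMT5, the main enzyme of symmetric arginine dimethylation, was at 28.0, 35.3 and 34.0 CPM with DMSO and at 22.4, 24.3 and 22.8 CPM with BIX. The groups did not overlap (−0.48, standard error 0.10, adjusted p = 0.00226 by edgeR). PRMT5 shares 28.2% of its exon length with other genes. WDR77, the obligate partner of PRMT5, fell as well, from 30.2, 33.9 and 27.6 CPM to 21.4, 20.1 and 20.1 CPM (−0.57, adjusted p = 0.000528). PRMT7 (−0.37), PRMT6 (−0.34), PRMT3 (−0.23) and PRMT1 (−0.24, groups overlapping, adjusted p = 0.0470) completed the 5. PRMT2 was at 131, 135 and 128 CPM with DMSO and at 135, 131 and 142 CPM with BIX (0.05, adjusted p = 0.541).

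Among the deacetylases, 6 HDAC genes fell and 0 rose in BIX cells, against 18.4% of all genes called in each direction. The 11 entries of the family include the antisense transcript HDAC2-AS2, which passed the count filter only through the DMSO libraries, where it is higher. The 6 genes were 3 of 4 class I enzymes and 3 of 4 class IIa enzymes. Class I enzymes are mostly nuclear, and of these HDAC1 and HDAC2 work in corepressor complexes such as NuRD, CoREST and SIN3. Class IIa enzymes shuttle between nucleus and cytoplasm and bind MEF2 factors. HDAC7 was at 232, 246 and 247 CPM with DMSO and at 150, 145 and 166 CPM with BIX, so every BIX library was below every DMSO library (−0.65, standard error 0.068, adjusted p = 7.48e-06 by edgeR). HDAC9 was at 75.5, 76.3 and 78.8 CPM with DMSO and at 48.1, 52.0 and 45.5 CPM with BIX (−0.66, standard error 0.074, adjusted p = 1.41e-05). HDAC4 was at 29.5, 23.6 and 24 CPM and at 16.6, 17.3 and 13.8 CPM (−0.69, standard error 0.12, adjusted p = 0.000547). The groups did not overlap for either gene. The other class IIa enzyme, HDAC5, was at 53.5, 55.6 and 47.6 CPM with DMSO and at 49.3, 51.8 and 57.6 CPM with BIX (0.02, adjusted p = 0.887).

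The class I changes were smaller. HDAC2 was at 291, 269 and 288 CPM with DMSO and at 245, 231 and 226 CPM with BIX (−0.27, adjusted p = 0.00376). HDAC3, another corepressor subunit, fell by 0.29 on the log2 scale (adjusted p = 0.00888) and HDAC1 by 0.19 (adjusted p = 0.0241). HDAC8 was at −0.17 and did not pass. The class IIb enzymes HDAC6 and HDAC10 did not pass either, at 0.02 and −0.52. HDAC10 was at 1.06 to 2.56 CPM and shares 73.6% of its exon length with other genes. Per kilobase of exon, HDAC1 had the highest level of all members in DMSO cells, at 86.3 CPM per kb.

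**Figure D2:**
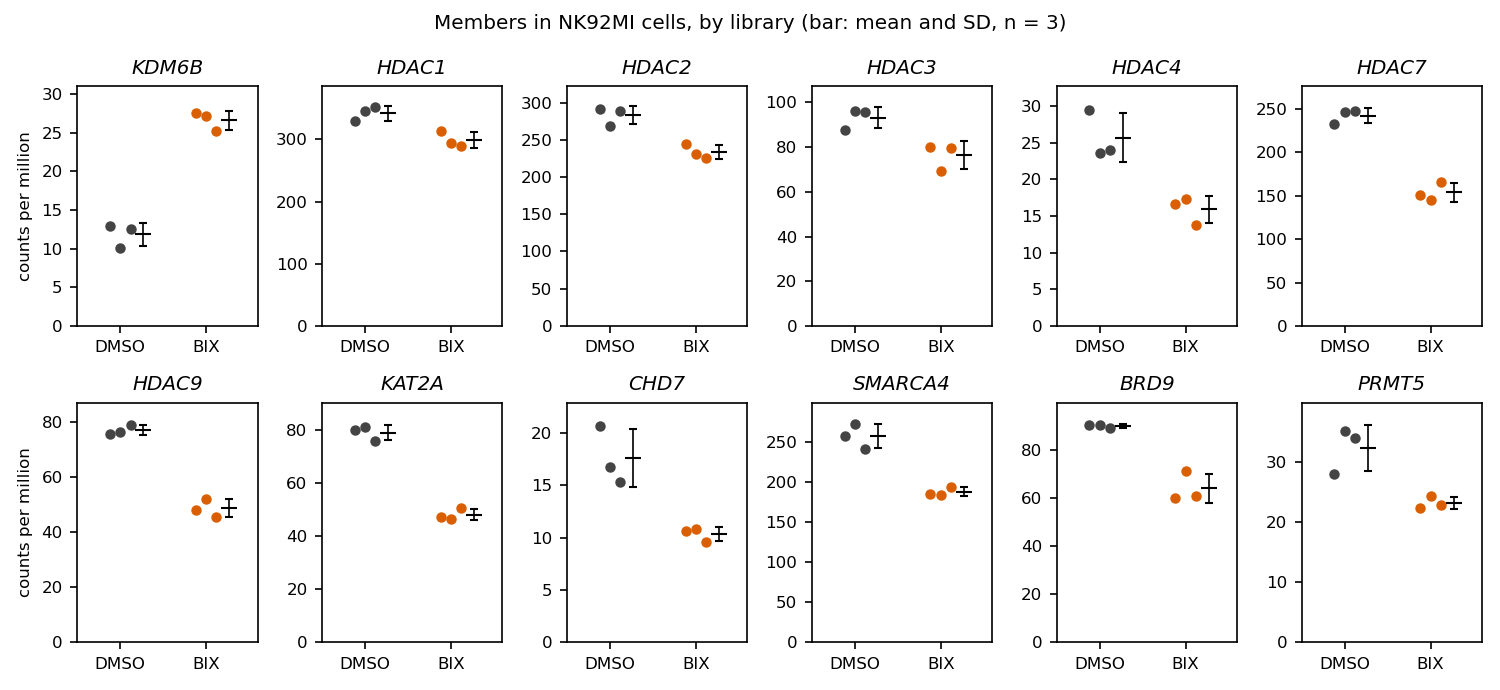
CPM of 12 members in each NK92MI library, with the mean and SD of the 3 libraries of a group beside the points. All BIX libraries lie below all DMSO libraries for the 11 members shown other than KDM6B, which lies between 10.1 and 12.9 CPM with DMSO and between 25.2 and 27.5 CPM with BIX.

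In mouse NK cells Hdac9 was the only member to pass as lower. It was at 22.8, 13.3 and 20.7 CPM in WT and at 11.8, 6.98 and 7.68 CPM in KO. The KO libraries lay below the WT libraries, with the highest KO value close to the lowest WT value (−1.11, standard error 0.26, adjusted p = 0.0429 by edgeR). The B cell, macrophage and dendritic cell markers given above were also lower in KO libraries, and their part in the Hdac9 value was not tested. Hdac7 was at 153, 185 and 170 CPM in WT and 172, 215 and 176 CPM in KO (0.15, adjusted p = 0.384), and Hdac4 at 0.04. The class I genes Hdac1, Hdac2, Hdac3 and Hdac8 lay between −0.11 and 0.10. Hdac11, the class IV enzyme, was at −0.26 (adjusted p = 0.216), and Hdac6 and Hdac10 were both at −0.004.

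Among the sirtuins, SIRT7 rose in both experiments. Sirt7 is a nucleolar deacetylase of histone H3 lysine 18. It was at 150, 163 and 157 CPM in WT and at 224, 211 and 212 CPM in KO NK cells, a clear separation (0.46, standard error 0.075, adjusted p = 0.0275 by edgeR). SIRT7 was at 63.9, 67.9 and 66.9 CPM with DMSO and at 82.0, 70.7 and 84.5 CPM with BIX (0.26, standard error 0.078, adjusted p = 0.0200). With BIX replicate 1 or the DMSO library CON-1 or CON-3 left out, its adjusted p by edgeR was 0.0853, 0.0911 or 0.0601. SIRT2 (0.22, adjusted p = 0.0353) and the mitochondrial SIRT3 (0.34, adjusted p = 0.0416) rose in NK92MI cells too. The mitochondrial SIRT5 fell from 19.3, 21.3 and 19.5 CPM to 15, 15 and 15.7 CPM (−0.39, adjusted p = 0.00718). In mouse, Sirt1 (26.0, 29.7 and 25.9 CPM in WT, 32.6, 30.7 and 34.4 CPM in KO) was at 0.26 and did not pass (adjusted p = 0.106).

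KDM6B (JMJD3), which removes the repressive H3K27 methyl mark, had the largest rise of the protein-coding members in BIX cells. The gene lies at chr17:7834217-7854796 (GRCh38, plus strand). It was at 12.9, 10.1 and 12.5 CPM with DMSO and at 27.5, 27.2 and 25.2 CPM with BIX, a 2.25-fold rise without overlap (log2 fold change 1.17, standard error 0.11, adjusted p = 3.94e-06 by edgeR). Its paralogue KDM6A (UTX), at 74.7, 71.9 and 75.4 CPM with DMSO and 77.1, 74.9 and 70.8 CPM with BIX, was at 0.005 (adjusted p = 0.960). The H3K36 demethylases KDM2A (154, 154 and 150 CPM with DMSO, 180, 199 and 176 CPM with BIX, 0.28, adjusted p = 0.00422) and KDM2B (0.26, adjusted p = 0.00903) rose, as did KDM7A (0.29, adjusted p = 0.0272). KDM1A (LSD1), which acts on H3K4 within CoREST, fell from 114, 109 and 110 CPM to 88.2, 92.2 and 92.3 CPM (−0.29, standard error 0.062, adjusted p = 0.00251). KDM7A-DT, a non-coding transcript that starts beside KDM7A, fell by 0.81 on the log2 scale (adjusted p = 0.00712), at 68 to 86 counts with DMSO and 36 to 49 counts with BIX. The H3K4 demethylases KDM5A, KDM5B and KDM5C did not pass.

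In mouse NK cells 0 of 11 Kdm genes passed, against 11.9% of all genes. Kdm6b was at 115, 94.2 and 136 CPM in WT and at 89.7, 104 and 94.7 CPM in KO (−0.26, adjusted p = 0.203), with overlapping groups. Kdm5b, at 37.9, 47.1 and 44.9 CPM in WT and 44.9, 57.6 and 65.5 CPM in KO, had the smallest p of the family (0.37, adjusted p = 0.125). Kdm1a was at 0.12 (adjusted p = 0.318).

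Among the bromodomain proteins, BRD9, BRD8 and BRD7 fell and BRD1 and BRD2 rose in BIX cells. BRD9, a subunit of the non-canonical BAF complex, was at 90.3, 90.0 and 89.0 CPM with DMSO and at 60.0, 71.0 and 60.6 CPM with BIX, without overlap (−0.49, standard error 0.076, adjusted p = 0.000231). BRD8, of the NuA4 acetyltransferase complex, was at −0.22 and BRD7, of the PBAF complex, at −0.16. BRD7 shares 41.9% of its exon length with other genes, among them ADCY7 on the opposite strand. BRD1, a scaffold of KAT6 and KAT7 complexes, was at 106, 113 and 112 CPM with DMSO and 136, 139 and 136 CPM with BIX (0.31, standard error 0.061, adjusted p = 0.00138). The BET protein BRD2 rose by 0.18 (adjusted p = 0.0252), while BRD3 did not pass. In mouse 0 of 7 Brd genes passed (11.9% of all genes), although WT and KO libraries did not overlap for 4 of them, against 38.5% of all genes. The smallest p was that of Brd7, at 74.3, 71.4 and 78.6 CPM in WT and 64.8, 67.7 and 63.4 CPM in KO (−0.20, adjusted p = 0.122). Brd9 was at 0.08 (adjusted p = 0.554).

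Of the 16 SMARC and ARID entries, 4 fell and 2 rose in BIX cells, close to the 18.4% of all genes called in each direction. SMARCA4 (BRG1), an ATPase of the complex, was at 257, 272 and 241 CPM with DMSO and at 185, 184 and 194 CPM with BIX. All BIX libraries lay below (−0.45, standard error 0.065, adjusted p = 0.000121 by edgeR). The alternative ATPase SMARCA2 (BRM), at 188, 188 and 182 CPM with DMSO and 200, 219 and 196 CPM with BIX, was at 0.14 and did not pass (adjusted p = 0.0997). The core subunits SMARCB1 (−0.31), SMARCC1 (−0.20) and SMARCD1 (−0.24, adjusted p = 0.00685) fell. ARID2, the subunit that defines PBAF, rose from 141, 137 and 142 CPM to 180, 208 and 160 CPM (0.38, standard error 0.083, adjusted p = 0.00256), while ARID1A and ARID1B did not pass. SMARCAL1-AS1 counted among the 16 that rose, at 0, 4 and 4 counts with DMSO and 11, 15 and 12 counts with BIX. It passed the count filter only through the BIX libraries, and 40.8% of its exon length lies in SMARCAL1 on the other strand.

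In mouse 1 of 15 genes of this family passed, against 11.9% of all genes. Smarcd3 (BAF60C), a subunit that ties the complex to lineage factors, was at 14, 15.6 and 10.3 CPM in WT and at 29.8, 22.5 and 20.7 CPM in KO, without overlap (0.87, standard error 0.20, adjusted p = 0.0406 by edgeR). Smarcd3 shares 48.2% of its exon length with Chpf2 and Mir671 on the opposite strand, and Prmt6 23.4% with C130013H08Rik. The library kit is not a strand-specific one and the strand setting of the counting is not given in the sources used here, so reads of such overlapping genes cannot be told apart. SMARCD3 in NK92MI cells was at 2.74, 1.99 and 3.25 CPM with DMSO and 1.40, 1.12 and 2.24 CPM with BIX (−0.74, adjusted p = 0.0708). The ATPase genes Smarca4 (−0.13) and Smarca2 (−0.11) and the PBAF gene Arid2 (0.01) did not pass.

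CHD7, a remodeller bound at enhancers, and CHD2 moved in opposite directions in BIX cells. CHD7 was at 20.7, 16.8 and 15.3 CPM with DMSO and at 10.6, 10.8 and 9.56 CPM with BIX, without overlap (−0.77, standard error 0.13, adjusted p = 0.000464). CHD2 was at 185, 185 and 187 CPM with DMSO and at 220, 255 and 207 CPM with BIX (0.29, adjusted p = 0.00767). The NuRD ATPases CHD3 (0.05) and CHD4 (−0.003) did not pass. In mouse 10 of 11 Chd genes lay above 0 (51.5% of all genes and 69.4% of all members) and 0 passed (11.9% of all genes). Chd5 was at 0.432, 0.621 and 0.967 CPM in WT and 1.20, 2.13 and 1.92 CPM in KO, without overlap (1.37, standard error 0.40, adjusted p = 0.0604), the lowest level per kilobase of the members. Chd7 was at 0.23 (adjusted p = 0.243), and Chd3 (323, 374 and 319 CPM in WT, 365, 457 and 438 CPM in KO) at 0.31 (adjusted p = 0.102).

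**Figure D3:**
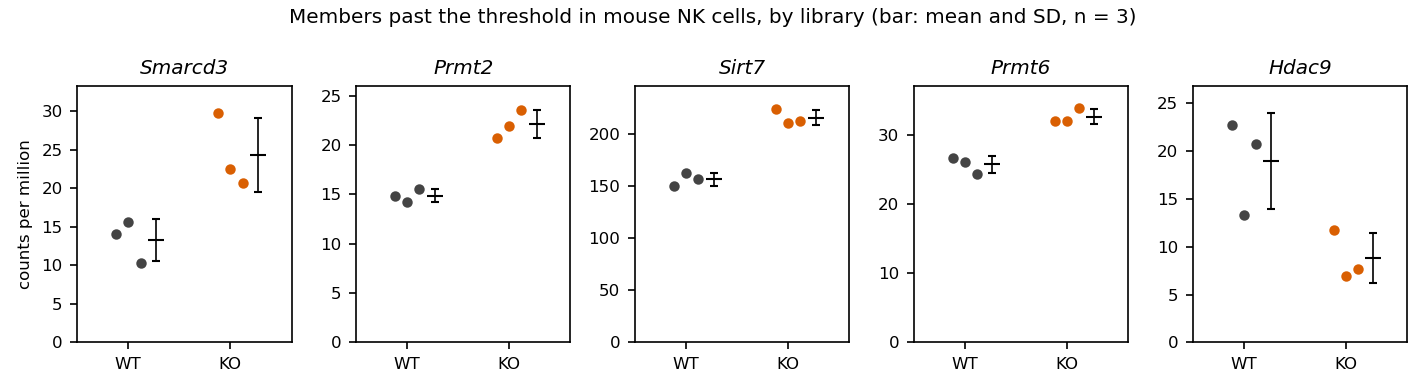
CPM of the 5 members that passed in mouse NK cells, by library, with the mean and SD of 3 libraries beside the points. KO libraries lie above WT libraries for Smarcd3, Prmt2, Sirt7 and Prmt6, and below for Hdac9 (6.98 to 11.8 CPM in KO, 13.3 to 22.8 CPM in WT).

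In mouse coordinates of GRCm38, the members that passed lie at chr11:120618372-120625240 (Sirt7), chr10:76207222-76237865 (Prmt2), chr5:24590818-24624411 (Smarcd3), chr3:110246109-110250998 (Prmt6) and chr12:34047580-34917095 (Hdac9), all on the minus strand. The mouse calls were near the threshold and depended on single libraries. With KO replicate 2, KO replicate 3, WT replicate 1 or WT replicate 3 left out, edgeR called 0 members. Calls over all genes fell as well, to 0, 0, 99 and 14 in these settings, from 1565 with all libraries. Without KO replicate 1 it called 8 higher and 1 lower, with 694 and 1338 of all genes. Without WT replicate 2, the shallowest library, 7 were higher and 3 lower, with 1433 and 2097 of all genes. When libraries were scaled to equal NK marker levels, the median of all genes was −0.81 and that of members −0.73. Sirt7, Prmt2 and Prmt6 then lay at −0.35, −0.27 and −0.48. Their rise thus holds relative to all genes and not relative to NK markers. The NK markers include Prf1, Il2rb and Tbx21, whose mRNA the study reported as higher in KO NK cells, so they are not a neutral reference. In NK92MI cells the same scaling left 2 members higher and 42 lower, with 1236 and 3862 of all genes.

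Genes of the same complexes that the symbol rule does not take were looked at as a list of partners. In mouse 3 of 91 tested partners passed, against 11.9% of all genes. Hcfc2, which belongs to COMPASS complexes, rose (15.1, 17.6 and 15.4 CPM in WT, 19.7, 22.2 and 22.9 CPM in KO, 0.43, adjusted p = 0.0488). The methyltransferase Smyd2 (−0.63, adjusted p = 0.0437) and the PBAF subunit Phf10 (−0.38, adjusted p = 0.0491) fell. In human 16 of 93 partners rose and 22 fell, close to the 18.4% of all genes called in each direction. HCFC2 rose in BIX cells as well, from 24.8, 24.6 and 25.4 CPM to 42.0, 49.2 and 41.9 CPM (0.83, standard error 0.090, adjusted p = 1.16e-05). SMYD2 also fell in BIX cells (−0.27, adjusted p = 0.00700), whereas PHF10 rose there (0.20, adjusted p = 0.0402), opposite to its fall in mouse. Of the corepressor partners, RCOR1 (0.47) and TBL1XR1 (0.50) rose while MTA1 (−0.46) and GATAD2A (−0.26) fell. In all, 4 of 18 rose and 4 fell, against 18.4% of all genes in each direction. Of 13 other methyltransferases and their partners, 0 rose and 6 fell (18.4% of all genes in each direction), among them DOT1L (143, 139 and 138 CPM with DMSO, 104, 107 and 107 CPM with BIX, −0.40) and CARM1 (−0.27). Of 24 acetyltransferase partners, 8 rose and 4 fell, again against 18.4% of all genes in each direction. NCOA1 (0.45) and NCOA3 (0.43) were among those that rose, and EP400 (−0.54) and TRRAP (−0.36) among those that fell. The median of all partners was 0.10 in mouse and −0.03 in human.

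The 2 experiments could be set side by side for 83 members with the same symbol. They share no samples. The sign of the log2 fold change was the same for 39 of 83 (47.0%), against 49.4% of 8789 genes in both tables. SIRT7 (higher) and HDAC9 (lower) passed in both with the same sign, and PRMT6 passed in both with opposite signs. These 3 of 83 members (3.61%) compare with 386 of 8789 genes (4.39%), of which 90 were higher in both, 97 lower in both and 199 opposite. For SIRT7 and HDAC9, the difference between the experiments did not pass (0.21, adjusted p = 0.158, and −0.45, adjusted p = 0.216, by edgeR). The difference of the effects itself, (KO minus WT) minus (BIX minus DMSO), passed for 25 of 83 members, against 30.7% of all genes. Those with the smallest p were KDM6B (−1.43, standard error 0.18, adjusted p = 0.000118 by edgeR), HDAC7 (0.80, standard error 0.14, adjusted p = 0.000925), PRMT6 (0.68, standard error 0.12, adjusted p = 0.00132) and CHD7 (0.99, standard error 0.19, adjusted p = 0.00172). The experiments differ in species, cell source and mode of EHMT2 loss at once, and these cannot be told apart. Per kilobase of exon, Kdm6b was at 16.6 CPM per kb in WT NK cells and KDM6B at 1.6 in DMSO cells, whereas Hdac7 was at 25.1 and HDAC7 at 24.4. These levels come from tables normalized separately.

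**Figure D4:**
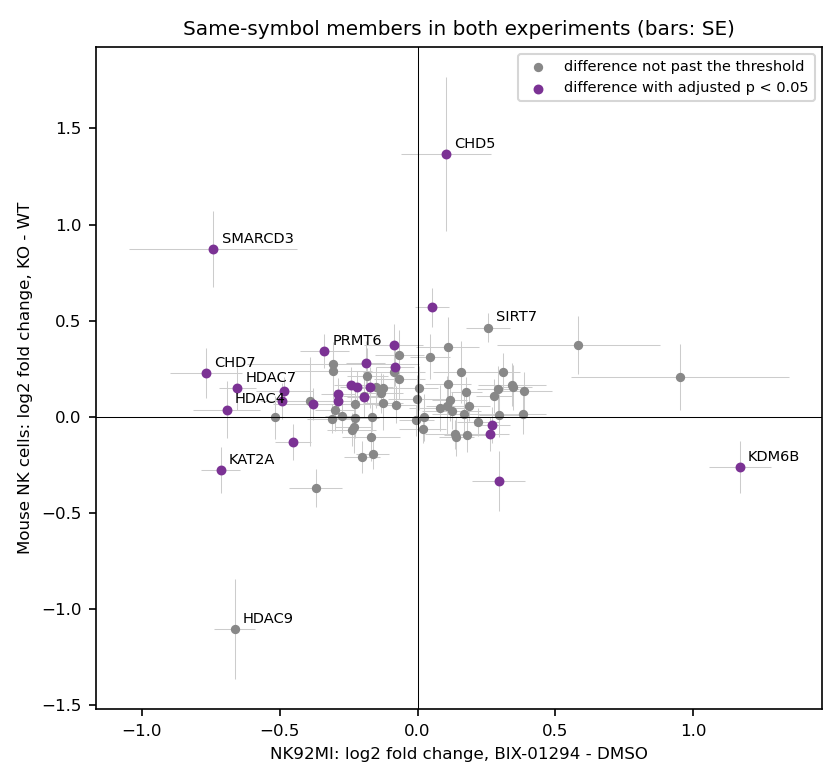
Log2 fold change of 83 same-symbol members in NK92MI cells (BIX-01294 minus DMSO, horizontal) against mouse NK cells (KO minus WT, vertical), with standard errors as bars. Purple points are the 25 members whose difference between the experiments had an adjusted p under 0.05, and HDAC9 is low and SIRT7 high on both axes.

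Many of these genes are long, and long members moved together from library to library. In mouse the 25 members with at least 10000 bases of exon had a median deviation from their mean over all libraries of −0.15 in KO replicate 1, 0.09 in KO replicate 2, 0.14 in KO replicate 3 and −0.17 in WT replicate 1, on the log2 scale. In human the 41 long members were at 0.13 in BIX replicate 2 and −0.12 in BIX replicate 3, and the 22 members under 5000 bases at −0.16 and −0.10. KMT2A, KMT2C and KMT2D were among the long members in both species. With an offset for exon length added after seeing this, edgeR called 4 mouse members higher and 1 lower (763 and 1072 of all genes). Hdac9 was then just outside the threshold (−1.10, adjusted p = 0.0507 by edgeR). The same offset called 21 human members higher and 32 lower (2682 and 2613 of all genes).

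**Figure D5:**
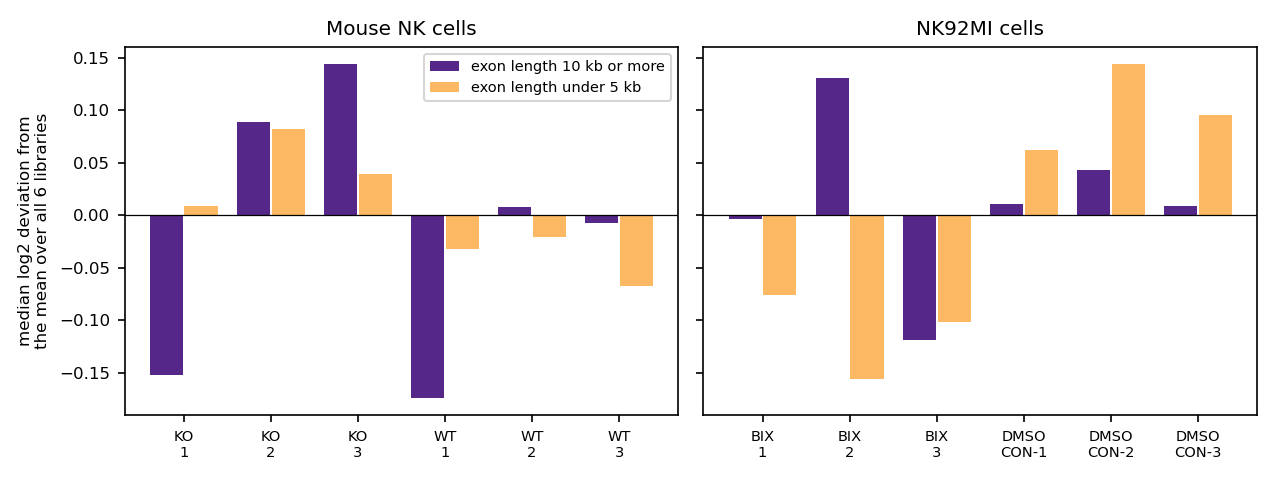
Median log2 deviation of members from their mean over the 6 libraries of the table, for members with at least 10 kb of exon (purple) and under 5 kb (orange), in each library. Long members lie at −0.15 in KO replicate 1 and 0.14 in KO replicate 3, and short members lie below 0 in all BIX libraries and above 0 in all DMSO libraries.

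Levels were compared between genes only per kilobase of exon. In WT NK cells the highest were the SWI/SNF genes Smarcd2 (61.3 CPM per kb) and Smarcc2 (53.9), the NuRD ATPase Chd4 (55.1) and the BET gene Brd2 (47.7). In DMSO cells they were HDAC1 (86.3), KAT2B (74.3), PRMT1 (56.2) and BRD2 (35.1). The lowest were Chd5 (0.07) in mouse and KDM5B (0.05) in human. KDM5B was at 1.11, 1.29 and 1.30 CPM with DMSO and at 2.25, 1.82 and 1.48 CPM with BIX (0.58, adjusted p = 0.138).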

How the data were processed

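PolyA RNA-seq covered mouse spleen NK cells (WT or KO for Ehmt2) and NK92MI cultures (BIX-01294 or DMSO), with 3 libraries a group. Per the labels and the study's methods, the authors trimmed reads with fastp 0.23.4, aligned them with STAR 2.7.11b to GRCm38 or GRCh38 and deposited raw read counts per gene from HTSeq 2.0.3. The annotation release and strand setting are not given in the sources used here. Samples were grouped by title. The human control columns carry numbers that the labels do not tie to single DMSO samples, so they entered as a group.

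The counts were tested in R 4.3.3 with edgeR 4.0.16 (TMM normalization, filterByExpr, quasi-likelihood test) over 13189 mouse and 12727 human genes, separately by species. P-values were Benjamini-Hochberg adjusted over all genes tested, and an adjusted p under 0.05 counted as passed. The difference between the experiments was fitted over 8789 genes with the same symbol. That fit assumed 1 dispersion per gene for both species, although the biological coefficient was 18.2% in mouse and 7.55% in human. The standard errors and p-values of the difference rest on this assumption. CPM values are TMM-normalized. Exon lengths, positions and overlaps came from GENCODE vM21 and v44, matched by symbol. Promoter letters came from RefSeq. Genes named by rule were the members that passed (beyond 24, the 12 with the smallest p in each direction), the member with the smallest p in each family, members that passed in both experiments, the 10 with the smallest p for the difference, and Ehmt2. Any other gene was named with its values in view. The members and lists were chosen with earlier results of these data known. The scripts were tested on simulated data. Alternatives were DESeq2 1.42.0, limma 3.58.1 (voom), robust dispersions, other scalings and filters, a replicate block, other thresholds, each library left out in turn and, added after seeing the data, an offset for exon length and DESeq2 at the stricter thresholds.

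Each library counted as its own sample. Replicate libraries differed by more than sampling noise (chi-square per degree of freedom 2.82 to 76.8), which cannot show whether they came from separate mice or cultures. Mouse replicate numbers were checked for pairing: same-numbered KO and WT libraries had correlations of their deviations of 0.38, 0.53 and −0.23. Differently numbered pairs ran from −0.57 to 0.37. With 3 libraries a group this cannot show whether same-numbered libraries share a batch or only a number. The main test therefore used no pairing. Some genes are not reported here.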

Additional observations from a re-analysis of the deposited data

Results flagged for a closer look

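For 16 named members the effect of Ehmt2 deletion in mouse NK cells differed from that of BIX-01294 in NK92MI cells by a test of the difference itself (edgeR's quasi-likelihood test, adjusted over 8789 genes). The values are mouse minus human log2 fold changes. Against 30.7% of all genes, 25 of 83 members passed. Species, cell source and mode of EHMT2 loss cannot be told apart here.

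The erasers among them were KDM6B (−1.43, adjusted p = 0.000118), HDAC7 (0.80, adjusted p = 0.000925), KDM1A (0.41, adjusted p = 0.00575), HDAC4 (0.73, adjusted p = 0.0162) and KDM2B (−0.35, adjusted p = 0.0263). Each of the 5 passed in NK92MI cells and 0 passed in mouse. Passing in NK92MI cells was itself a rule for naming a member, so this pattern follows in part from the naming. The eraser SIRT1, not named by rule, also passed for the difference (0.34, adjusted p = 0.0366 by edgeR). It passed in neither experiment alone (adjusted p = 0.106 in mouse and 0.394 in human). The arginine methyltransferases were PRMT6 (0.68, adjusted p = 0.00132), PRMT2 (0.52, adjusted p = 0.00257) and PRMT5 (0.62, adjusted p = 0.00261). Of these, PRMT6 passed in both with opposite signs, PRMT2 in mouse and PRMT5 in human. PRMT5 shares 28.2% of its human exon length with other genes. The other writers were KAT2A (0.44, adjusted p = 0.0295), at −0.28 in mouse and −0.71 in human, and KMT5A (−0.31, adjusted p = 0.0452).

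The remodellers were CHD7 (0.99, adjusted p = 0.00172), SMARCD3 (1.62, adjusted p = 0.00537), SMARCD1 (0.41, adjusted p = 0.0117), CHD5 (1.26, adjusted p = 0.0282) and SMARCA4 (0.32, adjusted p = 0.0476), and the reader was BRD9 (0.57, adjusted p = 0.00352). SMARCD3 is at 1.12 to 3.25 CPM in NK92MI cells, and it shares 28.4% of its exon length with other genes in human and 48.2% in mouse. CHD5 passed in neither experiment alone.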

How the results depend on the processing

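In mouse (4 members higher, 1 lower), 2 were lower with DESeq2 (6 higher), voom, DESeq2 size factors or a mean CPM of at least 1. All genes called lower in these settings numbered 1989, 892, 1010 and 981, and DESeq2 called 1098 higher. Scaling to the NK markers gave 0 higher and 67 lower, with 33 and 8517 of all genes (median −0.73, against −0.81 for all genes). It turned Sirt7 (−0.35), Prmt2 (−0.27), Prmt6 (−0.48), Kmt2a (−0.45), Kdm5b (−0.45), Kdm1a (−0.69), Hdac7 (−0.66), Brd9 (−0.71), Smarcd1 (−0.65), Chd7 (−0.57) and Prmt5 (−0.69) below 0. An unadjusted p under 0.05 gave 14 and 4, and the study's thresholds 0 and 0, or 2 and 1 with DESeq2. Leaving out 1 library gave 0 to 8 higher and 0 to 3 lower, and over all genes 0 calls without KO replicate 2 or KO replicate 3, 14 without WT replicate 3 and 99 without WT replicate 1. Kmt5a ran from −0.093 to 0.022 and was at 4.05e-05 without WT replicate 3. With the replicate block, 10 were higher and 2 lower (1292 and 1930 of all genes), although the numbers are not known to pair these libraries. No paired analysis was possible in human because the control columns carry no linked replicate number.

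In human (16 higher, 26 lower), scaling to the NK markers gave 2 and 42, with 1236 and 3862 of all genes (median −0.27, against −0.15 for all genes). PRMT2 was then at −0.093. The study's thresholds gave 1 and 7, also with DESeq2. Leaving out 1 library gave 11 to 23 higher and 19 to 35 lower, with 1850 to 2581 and 1641 to 2440 of all genes. KMT2E did not pass without CON-2 (adjusted p = 0.0522) or KDM2B without CON-3 (0.0565). The difference passed for 15 to 30 members with 1 library left out, with 16 without BIX replicate 1 or CON-1 and 15 without CON-2. Calls over all 8789 genes were not counted in these settings, so this range cannot be read as a result about the members. The causes were not tested. Of the alternative values of named members, 429 of 449 in human and 254 of 304 in mouse kept their direction and side of the threshold. In mouse 24 lost the call, 13 gained it and 13 changed sign, and in human 15, 4 and 1. The standard error was largest for low-count entries, Chd5 in mouse (0.40) and HDAC2-AS2 in human (0.62).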

Other observations

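The NuRD ATPase CHD4 was at 422 to 465 CPM in WT mouse NK cells and at 15.9 to 18.2 CPM in DMSO-treated NK92MI cells, or 55.1 and 1.32 CPM per kb, while CHD3 was at 40.1 and 20.7 CPM per kb. CHD4 shares 53.5% of its human exon length with other genes, and the tables were normalized separately, so this difference in level was not tested. The antisense transcript HDAC2-AS2 was at 12, 11 and 10 counts with DMSO and at 7, 0 and 7 counts with BIX, and did not pass (adjusted p = 0.152 by edgeR).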
